A study of Homo sapiens with 6 samples.

Results

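The genes described here are 32 enzymes, regulators and carriers of sterol and fatty acid synthesis, chosen from the 67026 genes of the count table by a rule that names them. The rule uses no measured value, but the members were chosen with earlier results of these data known. They comprise 18 enzymes of the sterol branch, 9 enzymes of the fatty acid branch, 4 regulators (SREBF2, SREBF1, SCAP and INSIG1) and the sterol carrier STARD4. The list does not hold every enzyme of either route. Their expression was measured by RNA-seq in xenograft tumours of PC-3, a line of human prostate cancer cells, grown in NSG mice, an immunodeficient strain written in full as NOD.Cg-Prkdcscid Il2rgtm1Wjl/SzJ. The mice were males of 4 to 5 weeks. Each mouse received 1200000 cells under the skin in a mix of saline and Matrigel, and tumours were followed for 4 weeks. The cells of both groups had been transduced with a lentiviral short hairpin RNA and selected with puromycin. In the control group (shGFP) the hairpin targeted GFP, and in the other group (shVCAN) it targeted VCAN, the gene for the matrix proteoglycan versican. There were 3 numbered xenografts a group, and each library is named below as a tumour. The labels do not say whether shVCAN stands for 1 hairpin sequence or several, nor whether the numbered libraries came from separate mice, so p-values measure only the spread between these libraries. A further experimental group named in the growth protocol was not analysed here.

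Cholesterol and fatty acids are both built from acetyl-CoA. The sterol route joins acetyl units into mevalonate, isoprenoid units and squalene, and then closes and trims the ring system to cholesterol, while fatty acid synthase makes palmitate that elongases and desaturases modify. Transcription of both routes is driven by the sterol regulatory element binding proteins, SREBP-2 mainly for sterol genes and SREBP-1 mainly for fatty acid genes. These factors sit in the endoplasmic reticulum with the escort protein SCAP, are held there by INSIG proteins when sterols are plentiful, and are cleaved in the Golgi when sterols run short. Prostate carcinomas are known for active lipid synthesis.

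Libraries held 11253058 to 12936539 counts in shGFP and 12959840 to 13327617 in shVCAN. VCAN had 133, 104 and 121 counts in the shGFP tumours and 69, 39 and 44 in the shVCAN tumours, with no overlap (exact two-sided permutation test on CPM, p = 0.1, the smallest that 3 against 3 allows). Messenger RNAs of the mitochondrial genome took 14.9% ± 1.43 (SD, n = 3) of the counts in shGFP and 6.82% ± 0.701 (SD, n = 3) in shVCAN. With those genes left out of the table the members gave the same 5 higher and 14 lower calls. The PC-3 markers KRT8, KRT18, KRT7 and VIM summed to 2773 to 3035 CPM (counts scaled to a library total of 1000000, with TMM factors) in shGFP and 2503 to 2536 CPM in shVCAN. The 3 keratins fell, KRT7 by 0.97, KRT18 by 0.54 and KRT8 by 0.19 on the log2 scale, and VIM was not called. KLK3, which this line lacks, was at 0 counts. Among 8 adipocyte markers, ADIPOQ and LEP were at 0 counts in each tumour, and the list summed to 52.4 to 61.8 CPM in shGFP and 61.8 to 66.6 CPM in shVCAN. Of the 8, 1 rose (FABP4) and 1 fell (PPARG). PPARG made up most of the list sums, with means of 49.0 CPM in shGFP and 41.4 CPM in shVCAN. Of 7 fibroblast markers 4 fell (sums of 792 to 895 CPM in shGFP and 353 to 451 CPM in shVCAN), and of 7 skeletal muscle markers 4 fell (191 to 338 CPM and 148 to 225 CPM). Of 6 endothelial markers 3 fell (86.9 to 88.6 CPM and 48.3 to 52.5 CPM). Of 5 keratinocyte and sebaceous markers 1 rose, KRT10 (list sums of 53.5 to 57.3 CPM and 69.5 to 76.2 CPM). KRT10 made up most of these sums, with means of 53.8 CPM in shGFP and 72.9 CPM in shVCAN. The other markers of that list had too few counts to be tested. The part of other cell types in the results below was not tested, and in bulk tumours fewer cells of a type and less RNA per cell cannot be told apart.

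Of the 32 genes, 31 passed the filter on low counts and were tested, and ACACA did not. At a Benjamini-Hochberg adjusted p under 0.05 (edgeR quasi-likelihood test over all genes), 5 members were higher and 14 lower in shVCAN, and 12 were not called. The 19 called members are 61.3% of those tested, against 40.3% of all 16254 tested genes. The share called lower was 45.2% against 21.1%, and the share called higher was 16.1% against 19.2%. Most members are abundant, and abundant genes were called more often. Among genes with a mean of at least 10 CPM, 52.1% were called, 23.6% higher and 28.5% lower, and among the 28 members above that level the shares were 60.7%, 17.9% and 42.9%. The groups did not overlap in 17 of the 31 tested members (48.7% of all tested genes). The median log2 fold change of the members, shVCAN over shGFP, was −0.077, and that of all tested genes was 0.0014. When libraries were scaled by their total counts alone, 12 members were higher and 6 lower, and the median of all tested genes moved to 0.168. The largest rise was in TM7SF2 and, among members of at least 10 CPM, the largest fall was in SREBF2. Called changes of members above 10 CPM were modest, from a 1.58-fold rise to a 1.42-fold fall.

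**Figure D1:**
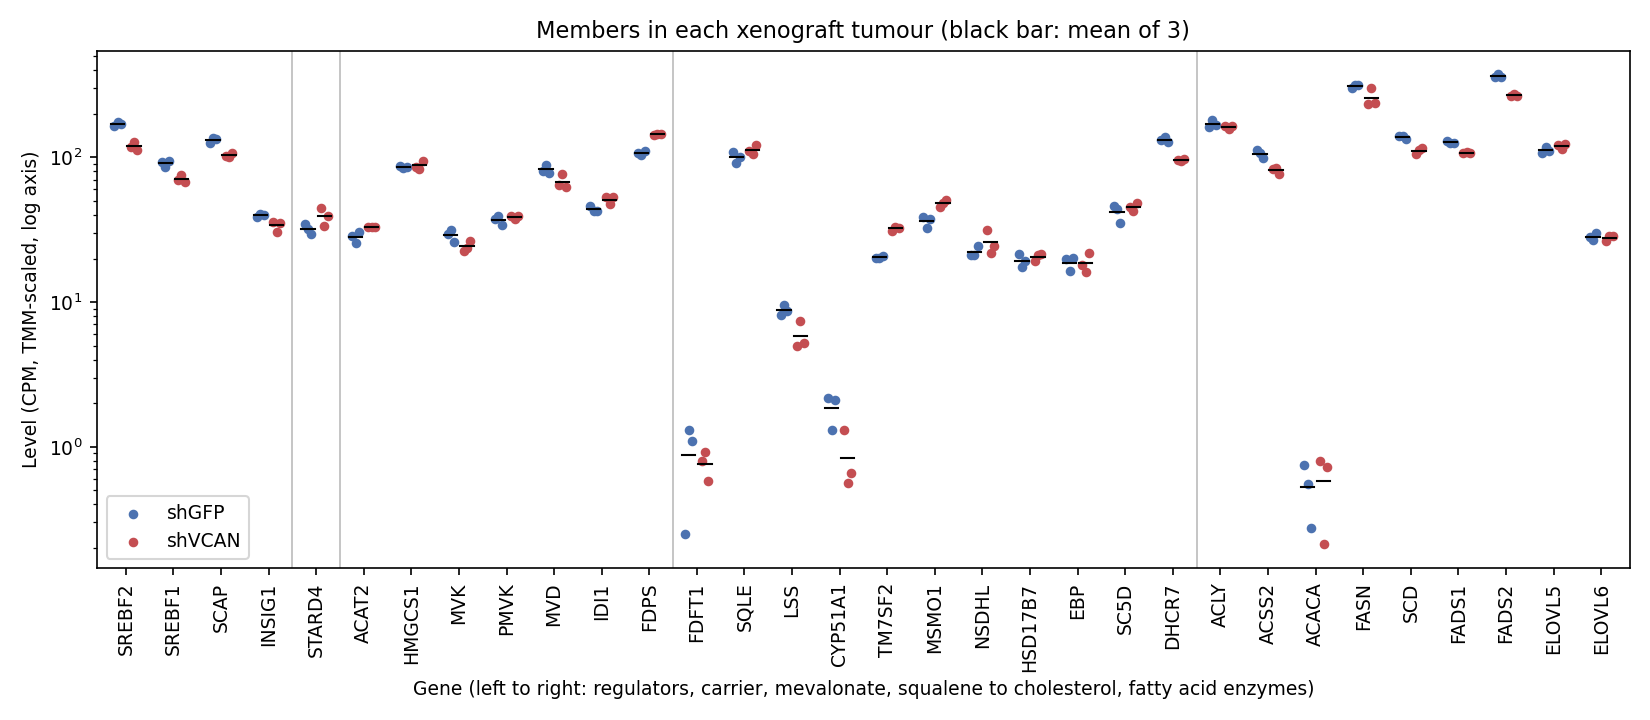
Level of each of the 32 members in each tumour in CPM on a log axis, with shGFP tumours in blue, shVCAN tumours in red and a black bar for the mean of 3 tumours. SREBF2, DHCR7 and FADS2 lie lower and FDPS and TM7SF2 higher in each shVCAN tumour, and FDFT1, CYP51A1, LSS and ACACA lie below 10 CPM.

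All 4 regulators were called lower, beside 21.1% of all tested genes and 28.5% of those of at least 10 CPM, the level of all 4. SREBF2, the gene for SREBP-2 (ENSG00000198911.12, chromosome 22, 41833079 to 41907308, GRCh38), had 165, 174 and 170.1 CPM in the shGFP tumours and 117, 128 and 113 CPM in the shVCAN tumours. Each shVCAN tumour was below every shGFP tumour, and the log2 fold change was −0.50 (SE 0.0590, adjusted p = 3.81e-08). SREBF1, the gene for SREBP-1 (chromosome 17, 17810399 to 17837002), had 93.0, 86.3 and 94.8 CPM in shGFP and 70.0, 75.7 and 67.4 CPM in shVCAN. The groups were again apart, with a log2 fold change of −0.36 (SE 0.0676, adjusted p = 6.19e-05). SCAP had 125, 137 and 134 CPM in shGFP and 103, 101 and 107 CPM in shVCAN. Its values did not overlap either, and the log2 fold change was −0.35 (SE 0.0601, adjusted p = 2.35e-05). INSIG1, itself an SREBP target as well as the retention factor, had 38.6, 40.4 and 39.9 CPM in shGFP and 35.7, 30.6 and 35.5 CPM in shVCAN. Its fall was smaller, at −0.22 (SE 0.0884, adjusted p = 0.0422), and the call was lost in 8 of 16 other settings. These include library size alone (−0.059, adjusted p = 0.635) and leaving out any 1 shGFP tumour or shVCAN tumour 2 (adjusted p from 0.0734 to 0.184). SREBF2, SREBF1 and SCAP stayed called in each of the 16 settings, with smallest falls of −0.31, −0.16 and −0.17 and highest adjusted p of 5.37e-05, 0.0278 and 0.021.

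The promoter of SREBF2 is shown because it was the one member promoter that held the sterol regulatory element searched for, TCACNCCAC on either strand (N any base), the kind of site that SREBPs bind. RefSeq promoters on GRCh38.p14, each 250 bases before and 50 after the gene start, were given for 28 of the 32 members. This element was in 1 of them (3.57%) and in 1.13% of all 35116 promoters. Only this spelling was searched, so a promoter without a match may still hold a sterol element of another spelling. The CCAAT box, bound by the cofactor NF-Y, was in 19 of the 28 (67.9%) and in 34.6% of all promoters, with 34.7% among 22198 protein-coding genes. It was in 4 of 5 promoters of members that rose, 8 of 13 of members that fell and 7 of 9 of tested members that were not called. The SP1 box GGGCGG was in 25 of the 28 (89.3%) and in 45% of all promoters, or 56.3% of those of protein-coding genes. The E-box CACGTG, a palindrome, was in 5 of the 28 (17.9%) and in 7.26% of all promoters. None of the 4 motifs is contained in another. Below are stretches upstream of the RefSeq start of 6 members, on the gene's strand, with the sterol element and CCAAT boxes (ATTGG on the other strand) in capitals. They include members that rose (FDPS, MSMO1) and that fell (SREBF2, DHCR7, ACSS2, SCD). Each stretch was drawn around 1 match. The promoters of FDPS, MSMO1, DHCR7 and SCD hold further CCAAT boxes that do not lie wholly inside it, so the stretches do not show how many boxes a promoter has.
SREBF2: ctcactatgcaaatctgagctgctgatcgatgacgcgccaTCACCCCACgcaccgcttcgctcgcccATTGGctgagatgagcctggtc
FDPS: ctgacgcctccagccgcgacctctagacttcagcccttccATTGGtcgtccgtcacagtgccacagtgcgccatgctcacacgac
MSMO1: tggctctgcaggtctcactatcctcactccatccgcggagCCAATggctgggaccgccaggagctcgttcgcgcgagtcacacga
DHCR7: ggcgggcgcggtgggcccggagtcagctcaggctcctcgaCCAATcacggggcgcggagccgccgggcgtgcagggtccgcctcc
ACSS2: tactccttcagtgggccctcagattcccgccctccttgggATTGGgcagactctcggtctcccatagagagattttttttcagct
SCD: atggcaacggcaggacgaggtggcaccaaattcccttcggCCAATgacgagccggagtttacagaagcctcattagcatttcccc

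These stretches lie at chr22:41832932-41833020 (plus strand), chr1:155308650-155308734 (plus), chr4:165327490-165327574 (plus), chr11:71448443-71448527 (minus), chr20:34874826-34874910 (plus) and chr10:100347007-100347091 (plus). In SREBF2 the sterol element starts 133 bases before the gene start, and a CCAAT box on the other strand lies between it and the start. The GENCODE 29 models of DHCR7 and ACSS2 begin farther upstream than these RefSeq starts, so those stretches lie inside the gene bounds of that annotation. A match of letters is a description of the sequence, not a binding site.

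Among the 7 enzymes from acetyl-CoA to farnesyl diphosphate, 2 rose, 2 fell and 3 were not called, that is 28.6% each way, near the 23.6% higher and 28.5% lower among all genes of at least 10 CPM. FDPS, farnesyl diphosphate synthase (ENSG00000160752.14, chromosome 1, 155308748 to 155320666), had 108, 103 and 110.0 CPM in shGFP and 144, 146 and 145 CPM in shVCAN. The groups were far apart relative to their spread, with a log2 fold change of 0.43 (SE 0.0576, adjusted p = 3.55e-07). FDPS has 8 named processed pseudogenes, which together held 0.0934% as many counts as FDPS, and RUSC1-AS1 covers 18.6% of its exonic bases. IDI1, the isomerase that balances the isoprenoid units, had 46.3, 42.6 and 42.5 CPM in shGFP and 52.8, 47.3 and 53.2 CPM in shVCAN. Its values did not overlap but shVCAN tumour 2 lay close to shGFP tumour 1, and the log2 fold change was 0.22 (SE 0.0799, adjusted p = 0.0266). The call was kept in 11 of 16 other settings and lost without shGFP tumour 2 or 3 or shVCAN tumour 1 or 3 (adjusted p from 0.0696 to 0.108). MVD, which decarboxylates mevalonate diphosphate, had 80.9, 88.9 and 77.5 CPM in shGFP and 64.3, 76.4 and 62.6 CPM in shVCAN. Here the shVCAN tumours were lower, with tumour 2 nearest to the shGFP range (log2 fold change −0.28, SE 0.0760, adjusted p = 0.00345). The call was lost with library size alone (−0.12, adjusted p = 0.25). MVK, mevalonate kinase, had 29.5, 31.6 and 26.2 CPM in shGFP and 22.4, 23.7 and 26.6 CPM in shVCAN. These groups overlapped, and the call (−0.26, SE 0.105, adjusted p = 0.0442) was kept in 6 of 16 other settings. It was lost without shGFP tumour 1 or 2 or shVCAN tumour 1 or 2 (adjusted p from 0.0823 to 0.222). PMVK, the kinase between MVK and MVD, had a log2 fold change of 0.065 (SE 0.0866, adjusted p = 0.585). HMGCS1, the synthase before mevalonate, had one of 0.035 (SE 0.0658, adjusted p = 0.712), with 85.8 ± 1.55 (SD, n = 3) CPM in shGFP and 87.9 ± 5.98 (SD, n = 3) in shVCAN. ACAT2, the cytosolic thiolase that opens the route, had 28.2 ± 2.50 (SD, n = 3) and 33.0 ± 0.109 (SD, n = 3) CPM and was not called (0.23, SE 0.0953, adjusted p = 0.0592). It was called in 4 of 16 other settings, among them library size alone (0.39, adjusted p = 0.00114) and without shGFP tumour 3 (adjusted p = 0.0355). Of the ACAT2 exonic bases, 52.3% are also annotated to neighbouring genes, SOD2 and TCP1 among them, so its value is uncertain.

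Between squalene and cholesterol, 2 of 11 enzymes rose (18.2%), 3 fell (27.3%) and 6 were not called, near the 19.2% and 21.1% of all tested genes. TM7SF2, a sterol reductase (ENSG00000149809.16, chromosome 11, 65111845 to 65116384), had 20.3, 20.1 and 20.9 CPM in shGFP and 31.1, 33.0 and 32.7 CPM in shVCAN. It was the member with the highest fold change, at 0.66 (SE 0.0993, adjusted p = 2.91e-06), and both groups were tight. MSMO1, the methyl sterol oxidase, had 38.6, 32.7 and 37.5 CPM in shGFP and 45.6, 48.5 and 50.5 CPM in shVCAN. Each shVCAN tumour was higher (log2 fold change 0.41, SE 0.0851, adjusted p = 0.000240). The MSMO1 call was lost with a correction for exonic length and GC content, called the length and GC offset below (0.15, adjusted p = 0.132). DHCR7, the reductase of the last step (ENSG00000172893.16, chromosome 11, 71428193 to 71452868), had 132, 139 and 127 CPM in shGFP and 96.0, 94.7 and 96.9 CPM in shVCAN. It fell by 0.47 on the log2 scale (SE 0.0597, adjusted p = 1.96e-07), and the 3 shVCAN tumours differed little from each other. TM7SF2 and DHCR7 are both reductases of the late route, and they moved in opposite directions in each of the 16 other settings.

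The other called falls of this segment were in genes with few counts. LSS, lanosterol synthase, had 98, 103 and 95 counts in shGFP and 68, 105 and 71 in shVCAN, or 8.16, 9.57 and 8.68 against 4.94, 7.41 and 5.18 CPM. The CPM values did not overlap, and the log2 fold change was −0.59 (SE 0.190, adjusted p = 0.0136), a call kept in 11 of 16 other settings and lost without shGFP tumour 2 or shVCAN tumour 1 or 3 (adjusted p from 0.0597 to 0.0754). CYP51A1, lanosterol demethylase, had 26, 14 and 23 counts in shGFP and 18, 8 and 9 in shVCAN, or 2.16, 1.30 and 2.10 against 1.31, 0.564 and 0.657 CPM. These groups overlapped (log2 fold change −1.14, SE 0.440, adjusted p = 0.0390, kept in 9 of 16 other settings and lost without shGFP tumour 1 or 3 or shVCAN tumour 2 or 3, adjusted p from 0.116 to 0.144), and other annotated genes cover 83.2% of its exonic bases. FDFT1, squalene synthase, had 3 to 14 counts per tumour and a log2 fold change of −0.18 (SE 0.540, adjusted p = 0.825). Without the members under 10 CPM the sterol branch had 4 rises and 3 falls among its enzymes. SQLE, squalene epoxidase, had 109, 91.9 and 101 CPM in shGFP and 110.0, 106 and 122 CPM in shVCAN, which overlapped (0.16, SE 0.0685, adjusted p = 0.0578). It was called in 6 of 16 other settings, among them library size alone (0.33, adjusted p = 0.000178) and without shGFP tumour 1 (0.23, adjusted p = 0.0185) or shVCAN tumour 2 (0.21, adjusted p = 0.0109). NSDHL (0.22, adjusted p = 0.145), HSD17B7 (0.084, adjusted p = 0.599, with 9.93% as many counts in its 2 named pseudogenes), EBP (−0.015, adjusted p = 0.939) and SC5D (0.12, adjusted p = 0.336), which remove methyl groups or shift and add double bonds, were not called. NSDHL had its highest value in shVCAN tumour 1, at 31.4 CPM against 21.9 and 24.3 CPM in the others of that group, and it was called without shVCAN tumour 2 (0.33, adjusted p = 0.0259) and with library size alone (0.39, adjusted p = 0.00868). The carrier STARD4, which moves sterol between membranes, had 34.6, 32.1 and 29.5 CPM in shGFP and 44.9, 33.3 and 39.1 CPM in shVCAN. It was called higher (0.29, SE 0.100, adjusted p = 0.0231), although shVCAN tumour 2 lay within the shGFP range, and the call was lost without shVCAN tumour 1 (0.17, adjusted p = 0.234), shVCAN tumour 3 (adjusted p = 0.0534) or shGFP tumour 3 (adjusted p = 0.106).

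In the fatty acid branch no tested enzyme rose, 5 of 8 fell and 3 were not called, that is 62.5% lower beside 21.1% of all tested genes and 28.5% of those of at least 10 CPM, the level of all 8. ACSS2, which makes acetyl-CoA from acetate, had 112, 107 and 99.5 CPM in shGFP and 83.6, 84.4 and 76.8 CPM in shVCAN. The groups were apart (log2 fold change −0.38, SE 0.0655, adjusted p = 2.32e-05). ACLY, which makes acetyl-CoA from citrate and so feeds both branches, had 169.8 ± 9.02 (SD, n = 3) and 161 ± 4.47 (SD, n = 3) CPM and was not called (−0.077, SE 0.0560, adjusted p = 0.291). FASN, fatty acid synthase (chromosome 17, 82078333 to 82098332), had 301, 315 and 318 CPM in shGFP and 235, 300.6 and 238 CPM in shVCAN. It fell by 0.27 on the log2 scale (SE 0.0650, adjusted p = 0.00108), and shVCAN tumour 2 lay just below the lowest shGFP tumour. Without that tumour the log2 fold change was −0.40, and the call was lost with library size alone (−0.11, adjusted p = 0.218) and with the length and GC offset (−0.062, adjusted p = 0.338). ACACA, acetyl-CoA carboxylase, had 3 to 11 counts per tumour and was not tested.

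All 3 desaturases among the members were called lower, beside 28.5% of all tested genes of at least 10 CPM. FADS2 (ENSG00000134824.14, chromosome 11, 61792980 to 61867354), the delta-6 desaturase, had 359, 375 and 359 CPM in shGFP and 263, 274 and 266 CPM in shVCAN. It was among the most abundant members, the spread within groups was small, and the log2 fold change was −0.44 (SE 0.0479, adjusted p = 8.24e-09). FADS1, the delta-5 desaturase whose annotation overlaps it on the opposite strand (61799625 to 61829318), had 129, 127 and 125 CPM in shGFP and 107, 109.6 and 107 CPM in shVCAN. Its fall was −0.24 (SE 0.0579, adjusted p = 0.00144), and the call was lost with library size alone (−0.070, adjusted p = 0.38) and with the length and GC offset (−0.021, adjusted p = 0.796). Annotated exons of FADS1 share 5.57% of their bases with other genes, FADS2 among them. SCD, the stearoyl-CoA desaturase that makes oleate, had 141, 139 and 133 CPM in shGFP and 106, 112 and 117 CPM in shVCAN. The groups did not overlap (log2 fold change −0.30, SE 0.0592, adjusted p = 0.000110), and the call was lost with library size alone (−0.14, adjusted p = 0.0696). The elongases ELOVL5, which acts on polyunsaturated chains, and ELOVL6, which extends palmitate, had log2 fold changes of 0.10 (SE 0.0606, adjusted p = 0.199) and −0.022 (SE 0.0977, adjusted p = 0.882). ELOVL5 had 112 ± 5.02 (SD, n = 3) CPM in shGFP and 120.2 ± 5.02 (SD, n = 3) in shVCAN.

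**Figure D2:**
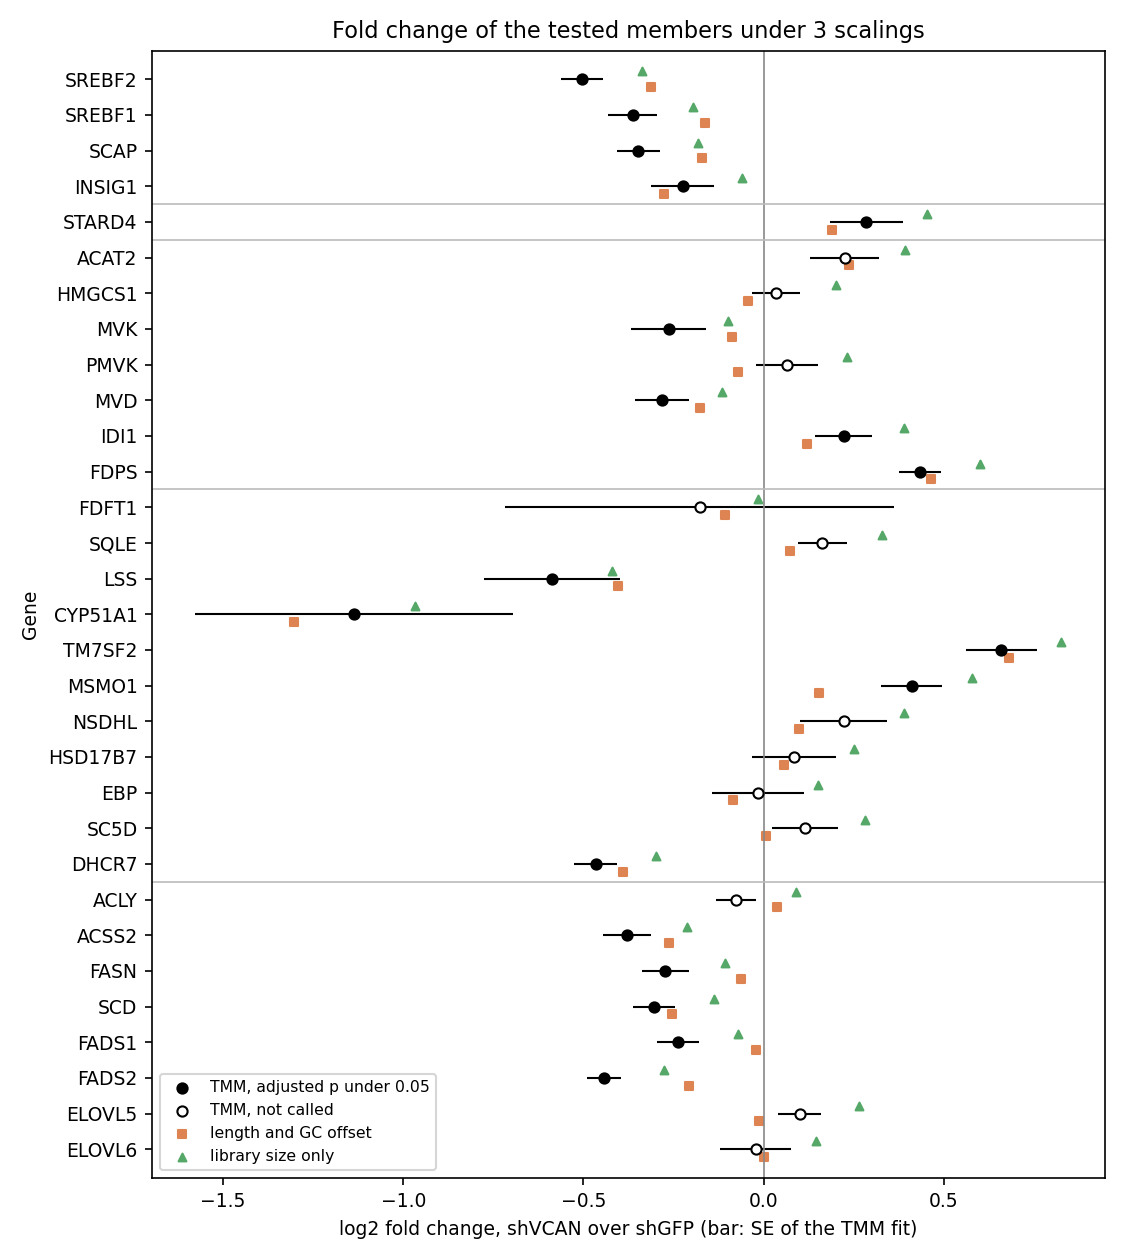
Log2 fold change, shVCAN over shGFP, of the 31 tested members, with circles and SE bars for the TMM fit (filled where the adjusted p was under 0.05), squares for the fit with the length and GC offset and triangles for scaling by library size alone. The regulators, DHCR7, ACSS2 and FADS2 lie left of 0 and FDPS and TM7SF2 right of 0 under all 3 scalings, while several fatty acid enzymes move toward 0 or past it under the other 2.

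The sterol and fatty acid branches were compared over their tested enzymes. The mean log2 CPM of the 18 sterol enzymes was 4.75 ± 0.0232 (SD, n = 3) in shGFP and 4.75 ± 0.0207 (SD, n = 3) in shVCAN, with 4.73, 4.75 and 4.78 in the shGFP tumours and 4.77, 4.73 and 4.76 in the shVCAN tumours. These overlapped. The mean of the 8 fatty acid enzymes was 7.08 ± 0.0174 (SD, n = 3) and 6.88 ± 0.0300 (SD, n = 3), with 7.08, 7.10 and 7.07 in shGFP and 6.85, 6.91 and 6.87 in shVCAN. These did not overlap. The summed CPM of the fatty acid enzymes was 1357 ± 26.2 (SD, n = 3) in shGFP and 1135 ± 38.2 (SD, n = 3) in shVCAN, and that of the sterol enzymes was 817 ± 17.1 (SD, n = 3) and 854 ± 21.7 (SD, n = 3). The sterol sum was 0.624, 0.584 and 0.599 of the fatty acid sum in the shGFP tumours and 0.763, 0.712 and 0.785 in the shVCAN tumours. This ratio is free of the scaling between libraries, and its groups did not overlap. It is given as a description, with no test. The difference of the branches' mean log2 fold changes (sterol minus fatty acid) was 0.188, and 0.312 without members under 10 CPM. With the length and GC offset it was 0.0549, the median of the fatty acid enzymes went from −0.25 to −0.041 and that of the sterol enzymes from 0.075 to −0.019. An equal mean in the sterol branch covers called changes in both directions, and it weighs genes under 10 CPM like the others. The sterol sums were 836, 810 and 804 CPM in the shGFP tumours. In the shVCAN tumours they were 844, 839 and 879 CPM, so the sums, unlike the means, did not overlap.

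**Figure D3:**
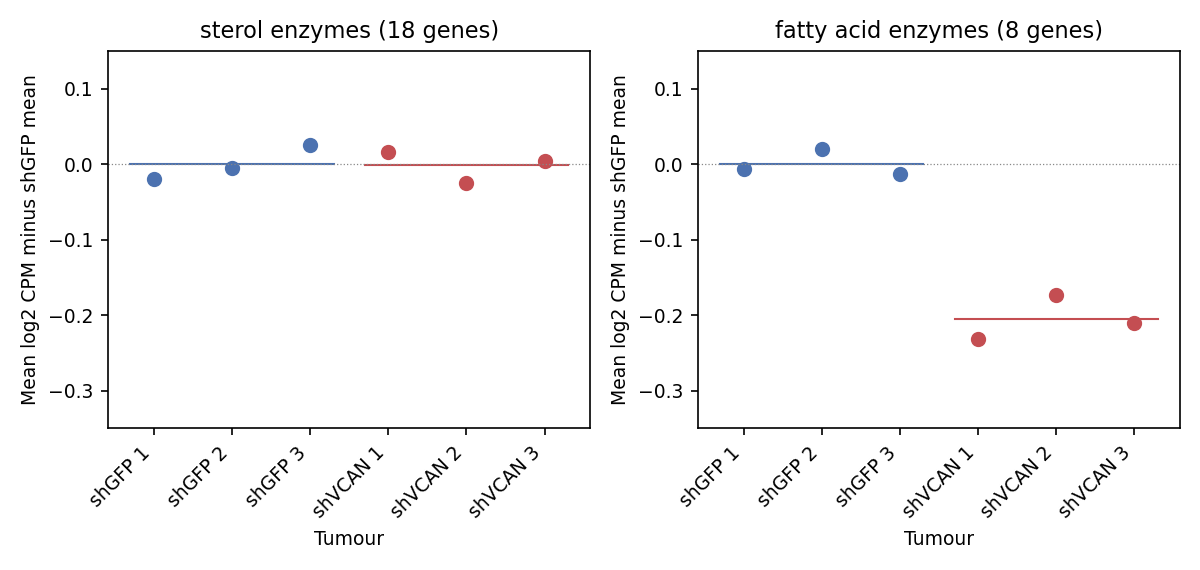
Mean log2 CPM of the 18 sterol enzymes (left) and the 8 tested fatty acid enzymes (right) in each tumour, as the difference from the mean of the shGFP tumours, with a line for each group's mean. The shVCAN tumours overlap the shGFP tumours in the left panel and lie below them in the right panel.

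The members' fold changes went with exonic length, that is all annotated exons of a gene joined, and with the GC content of their transcripts. Over the 28 tested members of at least 10 CPM, Spearman's rho between log2 fold change and exonic length was −0.585, and with GC content −0.509. Over all 10021 tested genes of that level with a known length the values were −0.293 and −0.176. These correlations are across genes of the same 6 libraries, and genes are not independent replicates. The members that rose have exonic lengths from 2892 bases in MSMO1 to 5684 in STARD4, and those that fell have lengths from 3584 in CYP51A1 to 11026 in FADS2, so the ranges overlap. TM7SF2 rose with a GC content of 62.9%, close to the 63.5% of SREBF1, which fell. The part of length and GC content in the fold changes was not tested. Within groups the tumours also differed with GC content. In shVCAN tumour 2 the deviation of a member from its group mean went up with GC content (rho 0.523 over 28 members) and in shVCAN tumour 3 it went down (rho −0.503). The rho was −0.261 in shVCAN tumour 1, and −0.515, 0.327 and 0.0569 in shGFP tumours 1, 2 and 3. The group mean is that of the same tumours, so the trends within a group are not independent of each other. Of the 19 called members, 8 were called in each of the 16 other settings (SREBF2, SREBF1, SCAP, DHCR7, ACSS2 and FADS2 lower, FDPS and TM7SF2 higher), and all 19 kept their direction.

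**Figure D4:**
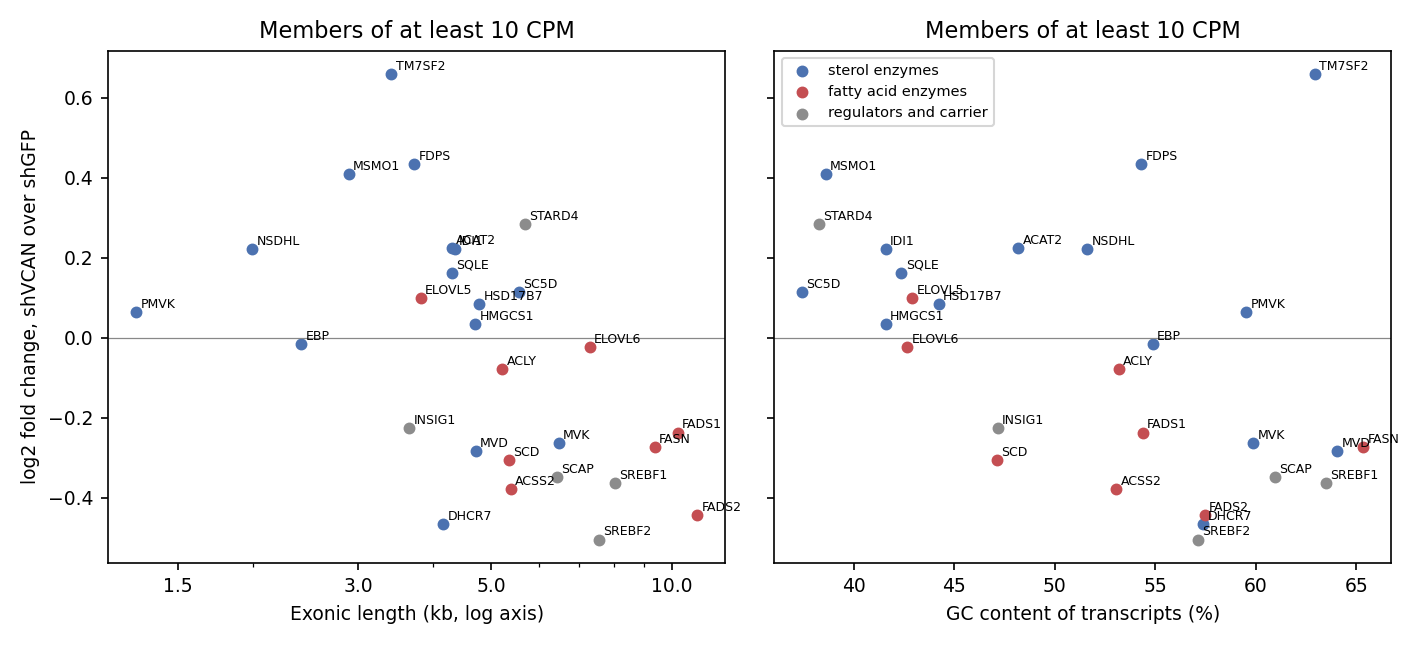
Log2 fold change, shVCAN over shGFP, of the 28 tested members of at least 10 CPM against exonic length in kilobases on a log axis (left) and GC content of their transcripts in percent (right), coloured by branch. Longer and GC-richer members lie lower, with rho −0.585 and −0.509, and TM7SF2 stands above the other GC-rich members.

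Levels between genes were compared per kilobase of exonic sequence, as mean CPM per kilobase in shGFP. Exonic sequence here joins all annotated exons of a gene and can be longer than the mRNA that the tumours make. The order of genes therefore depends in part on the annotation. FASN (33.3), FADS2 (33.1), ACLY (32.6) and DHCR7 (31.8) were the highest, and FASN, FADS2 and ACLY differed by less than the spread between tumours (SD 0.989, 0.835 and 1.73). In shVCAN the highest was FDPS at 38.9 ± 0.280 (SD, n = 3), up from 28.8 ± 0.916 (SD, n = 3), followed by ELOVL5 at 31.5 ± 1.32 (SD, n = 3) and ACLY at 30.9 ± 0.856 (SD, n = 3). SREBF2 stood at 22.5 ± 0.653 (SD, n = 3) in shGFP and 15.8 ± 1.06 (SD, n = 3) in shVCAN, and SREBF1 at 11.4 ± 0.557 (SD, n = 3) and 8.84 ± 0.532 (SD, n = 3). At the low end were LSS (1.22), CYP51A1 (0.518), FDFT1 (0.170) and ACACA (0.0405), far under the enzymes before and after them in the same routes. The table holds 8530 identifiers that GENCODE 29 does not list, with at most 0.195% of a library's counts. The sources used here do not give the handling of reads that map to several places, whose part in these low values was not tested. Replicate spread was small, with a median coefficient of variation of 5.12% in shGFP and 5.51% in shVCAN over the 28 members of at least 10 CPM.

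Other genes of the pathway were taken from 5 lists. Of 22 tested genes of SREBP processing and sterol handling, 3 rose, 10 fell and 9 were not called (median −0.14). The share called was 59.1%, beside 40.3% of all tested genes and 52.1% of those of at least 10 CPM, the level of most of these genes. RNF145, a sterol-regulated ubiquitin ligase, fell from 115 ± 3.10 (SD, n = 3) to 83.2 ± 4.75 (SD, n = 3) CPM and the sterol exporter ABCG1 from 10.3 ± 3.16 (SD, n = 3) to 4.15 ± 0.728 (SD, n = 3) CPM. The lipid transfer proteins OSBP (−0.43, SE 0.0718, adjusted p = 1.64e-05) and STARD3 (−0.41, SE 0.0727, adjusted p = 3.16e-05) also fell. Of 26 tested genes of fatty acid supply, activation and elongation, 6 rose, 9 fell and 11 were not called (median 0.023), that is 57.7% called. ACSL3, an acyl-CoA synthetase that serves lipid droplets, fell from 235 ± 17.1 (SD, n = 3) to 127 ± 6.61 (SD, n = 3) CPM, and SLC25A1, the mitochondrial citrate exporter that supplies ACLY, from 89.7 ± 4.58 (SD, n = 3) to 62.2 ± 2.06 (SD, n = 3) CPM. DBI, the acyl-CoA binding protein, rose from 87.8 ± 5.70 (SD, n = 3) to 133 ± 8.93 (SD, n = 3) CPM. Among 9 tested genes of isoprenoid side branches, which use the products of FDPS, COQ2 (0.49, SE 0.135, adjusted p = 0.00444) and PDSS1 (0.56, SE 0.201, adjusted p = 0.0264) of ubiquinone synthesis rose, DHDDS of dolichol synthesis fell (−0.39, SE 0.0996, adjusted p = 0.00224) and 6 were not called, so that 33.3% were called, under the share of all tested genes. COQ2 lost its call without shVCAN tumour 3 (adjusted p = 0.0572), and PDSS1 without shGFP tumour 3 or shVCAN tumour 1 or 3 (adjusted p from 0.0615 to 0.096) and with the length and GC offset (0.31, adjusted p = 0.24). DHDDS lost its call with library size alone (−0.22, adjusted p = 0.071). Of 5 tested genes of glycerolipid synthesis, GPAM, the first acyltransferase, rose from 18.4 ± 3.70 (SD, n = 3) to 32.7 ± 2.04 (SD, n = 3) CPM, the phosphatase LPIN2 fell (−0.21, SE 0.0691, adjusted p = 0.0145) and 3 were not called, so that 40% were called. The LPIN2 call was lost in 4 of 16 other settings, which were leaving out shGFP tumour 1 or 2 (adjusted p 0.0699 and 0.0948), library size alone (−0.045, adjusted p = 0.647) and the length and GC offset (−0.092, adjusted p = 0.268). Of 7 genes of fatty acid oxidation none rose. CPT1A, the carnitine transferase that admits fatty acids to mitochondria, fell from 66.4 ± 3.30 (SD, n = 3) to 46.0 ± 1.82 (SD, n = 3) CPM, ACADM fell (−0.27, SE 0.101, adjusted p = 0.0343) and 5 were not called, so that 28.6% were called. The ACADM call was kept in 9 of 16 other settings and lost with library size alone (−0.10, adjusted p = 0.448) and without shGFP tumour 1 or 3 or shVCAN tumour 1 or 2 (adjusted p from 0.052 to 0.34).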

How the data were processed

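The deposited table holds the authors' raw counts, whole numbers for each versioned Ensembl gene identifier. The submitters' processing notes name Trim Galore, STAR, DESeq2 and hg38 but neither versions nor roles. The sources used here do not give the counting program, the annotation release, the strand setting or whether mouse reads were removed, so some counts may come from mouse. The 45 second copies of pseudoautosomal genes (0 counts) were dropped, leaving 67026 genes. Columns were matched to samples by title. Genes were named by a table of symbols and GENCODE 29 (GRCh38), which also gave exonic length, GC content and overlaps.

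Both groups were fitted in edgeR 4.0.16 under R 4.3.3 and tested by quasi-likelihood (TMM, filterByExpr, group as the only term), with p-values adjusted over all 16254 tested genes and a threshold of 0.05. SE is the log2 fold change over the square root of F. Log2 CPM used a prior count of 2. The fits were tested on simulated data. Alternatives were other scalings, filters, DESeq2 1.42.0, limma-voom (limma 3.58.1), a replicate block, an offset that removes each library's trend with length and GC content (trend estimated from genes at or above 4 CPM), and each tumour left out. The members, lists and tests were chosen with earlier results of these data known. The rule named VCAN, all members, and up to 4 called genes of each pathway list with the smallest p. A gene that this rule names is not reported here.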

Additional observations from a re-analysis of the deposited data

How the results depend on the processing

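Over all genes 3120 were higher and 3425 lower. With library size alone these were 5228 and 1890, members 12 higher and 6 lower, sterol enzymes 10 higher and 1 lower, and fatty acid enzymes 1 higher and 2 lower. For sterol enzymes called lower (5), 3 were called with no filter, with the Wald test of DESeq2, with the length and GC offset and among members of at least 10 CPM, and 2 at an adjusted p under 0.01. Members called higher (5) were 3 at an adjusted p under 0.01 and 3 with the length and GC offset, which left 3 fatty acid enzymes lower. The branch difference (0.188) was 0.152 with no filter, 0.0549 with that offset and 0.312 among members of at least 10 CPM, a setting chosen after seeing the data. The cause of these shifts was not tested, except that fewer members were counted in the last. With 1 tumour left out, members called higher ran from 3 (without shVCAN tumour 1 or 3) to 7 (without shVCAN tumour 2) and lower from 11 to 12, sterol enzymes higher from 3 to 6 and lower from 3 to 4 (4 without shGFP tumour 3), fatty acid enzymes stayed at 5 lower, and the branch difference ran from 0.158 to 0.214.

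No call turned direction. Among members that were not called, signs changed for EBP (0.024 with upper quartile factors, 0.15 with library size alone, 0.0025 with no filter, −0.14 to 0.083 without 1 tumour), ELOVL6 (0.017 with upper quartile factors, 0.14 with library size alone, 0.00040 with the offset, −0.049 to 0.024 without 1 tumour) and ACLY (0.089 with library size alone, 0.037 with the offset). The same held for FDFT1 (0.086 with limma-voom, −0.63 to 0.22 without 1 tumour), HMGCS1 (−0.045 with the offset, −0.023 to 0.072 without 1 tumour), PMVK (−0.072 with the offset) and ELOVL5 (−0.013 with the offset).

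Same-numbered tumours of the groups did not deviate together (correlations 0.0204, 0.0173 and −0.0352). This check cannot tell whether they were handled together. With the replicate number as a block, 3083 genes were higher and 3428 lower, with 6 and 13 members, MVK lost its call (adjusted p = 0.0518) and SQLE gained one (adjusted p = 0.0403). FDFT1, CYP51A1 and ACACA had at most 26 counts in a tumour, which limits what their values can show. The reason for these low counts was not tested.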

Other observations

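A few more genes of the sterol handling list are given as values, chosen after these were seen. The 3 genes of that list that rose were MBTPS2 (0.35, SE 0.0712, adjusted p = 0.000214), ERLIN2 (0.35, SE 0.0753, adjusted p = 0.000318) and TMEM97 (0.29, SE 0.0916, adjusted p = 0.0118). These 3 were not followed over the other settings. ABCA1, the cholesterol exporter, had 21.4, 21.7 and 21.6 CPM in the shGFP tumours and 15.3, 13.1 and 12.8 CPM in the shVCAN tumours. The groups were apart, with a log2 fold change of −0.65 (SE 0.120, adjusted p = 5.53e-05), called in each of 16 other settings. MYLIP, a ubiquitin ligase for lipoprotein receptors, had 16.5, 11.4 and 12.1 CPM in shGFP and 10.1, 8.11 and 9.85 CPM in shVCAN, which did not overlap (−0.52, SE 0.159, adjusted p = 0.00945). Leaving out shGFP tumour 1 ended this call (−0.33, adjusted p = 0.144), as did scaling by library size alone (−0.35, adjusted p = 0.069). NR1H2, an oxysterol receptor, had 138, 143 and 142 CPM in shGFP and 117, 116 and 110.5 CPM in shVCAN (−0.30, SE 0.0574, adjusted p = 9.14e-05, lost with library size alone at −0.13, adjusted p = 0.0807). Its relative NR1H3 had 6.11 ± 1.53 (SD, n = 3) and 5.19 ± 0.751 (SD, n = 3) CPM and was not called (adjusted p = 0.413).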
